A study of Mus musculus with 3 samples.

Results

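The genes described here encode the proteins by which blood leukocytes hold on to vessel walls. They are the selectins Sele and Selp, the selectin ligand Selplg, the immunoglobulin-family receptors Icam1, Icam2 and Vcam1, and the integrin subunits Itga4, Itgal and Itgb2. They were picked out by gene symbol, 9 of the 32285 genes listed for each library, and all 9 were found. The set was chosen with earlier results of these data known. They were followed across capillary endothelium, other endothelium, mesangial cells and leukocytes of mouse glomeruli.

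Single-cell RNA sequencing gave 3 libraries of glomerular cells, 1 for each condition. The control library came from mice labelled as blank controls, whose strain is not given for this experiment in the sources used here. In other experiments of the study MRL/MpJ mice were the controls of MRL/lpr mice. The untreated MRL/lpr library came from MRL/lpr mice, which carry the lpr mutation of Fas and develop lupus nephritis. The treated MRL/lpr library came from MRL/lpr mice that received hUC-MSCs, mesenchymal stem cells from human umbilical cord, 800000 cells per mouse into the tail vein, with the study's endpoint 21 days later. The mice were female and bought at 6 to 8 weeks, and MRL/lpr mice entered the model at about 16 weeks, once urine protein was climbing. How many mice went into a library is not given. The kidneys were digested with collagenase V before the glomeruli were enriched. With 1 library per condition there was no replicate, so no test between conditions could be made. Every interval below is a 95% interval for counting error alone and says nothing of the spread between mice. All are exact but those of the co-detection ratios, which are described with them.

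Expression was counted as unique molecular identifiers (UMIs), 1 per captured RNA molecule. The libraries held 90812138 to 103319588 UMIs. Barcodes with at least 1000 UMIs and at most 10% mitochondrial UMIs numbered 11018 in the control, 14109 in the untreated and 16586 in the treated library. The study speaks of approximately 8000 captured cells, and its full set of limits, which includes at most 5% ribosomal UMIs, kept 499, 886 and 536 of the barcodes with at least 1000 UMIs. After likely doublets were removed, 10047, 12516 and 14385 cells were clustered without the 9 genes. Between 24 and 41 of the barcodes kept were the same sequence in a pair of libraries. The clusters named as capillary endothelium held 5040, 3596 and 4168 cells, with median depths of 4237, 3694 and 2889 UMIs. Their 8 capillary markers, with Ehd3 among them, were detected in every library, at a sum of 7069, 4735 and 4379 CPM (the UMIs of a gene for every 1000000 UMIs of the class). Other endothelium held 607, 506 and 614 cells, mesangial cells 1029, 1658 and 1755, and leukocytes 322, 3401 and 4722. The endothelial classes differed in Ehd3 by degree. It was found in 97.9%, 91.6% and 83.1% of capillary cells, at 1645, 1128 and 976 CPM. In other endothelium it was found in 52.9%, 48.6% and 46.3% of cells, at 563, 296 and 264 CPM. Mesangial cells held it at 332, 345 and 307 CPM. The count of treated leukocytes hung on the processing, at 6213 with finer clusters (Leiden resolution 2.0) and 7809 with likely doublets kept. In capillary and mesangial cells each library lay mostly in clusters of its own. In the control library 73.2% of capillary cells fell in cluster 2 and 26.1% in cluster 10, in the untreated library 86.7% fell in cluster 3, and in the treated library 95.3% fell in cluster 1. Other endothelium of both MRL/lpr libraries shared cluster 11, apart from the control, and cluster 4 held 68.1%, 53.7% and 52.8% of mononuclear phagocytes. Unnamed clusters held 0.398% of control, 10.9% of untreated and 17.3% of treated cells.

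Leukocytes leave the blood in steps. Selectins on activated endothelium catch sugar-bearing ligands such as the product of Selplg and let the cell roll, chemokines then switch on leukocyte integrins, and the integrins bind ICAM and VCAM receptors on the endothelium for firm arrest. E-selectin, ICAM-1 and VCAM-1 are the classical endothelial receptors induced by inflammatory cytokines, whereas ICAM-2 is carried by resting endothelium. In the glomerulus the blood-facing cell is the fenestrated capillary endothelium, with mesangial cells just beneath it, and VCAM-1 is also known on mesangial cells and on some macrophages.

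The upstream sequences of the cytokine-inducible receptors Sele and Icam1 and of Selp are shown because the letters GGNNNTTCC, resembling a site of the factor NF-kB, can be looked for in them. The 300-base promoters, in RefSeq for build GRCm38.p6, run from 250 bases before to 50 bases after the start of the RefSeq gene, and 4 of the 9 genes had an entry. Capitals mark matches to GGNNNTTCC on either strand. Positions of genes are those of GENCODE M21. Sele lies at chr1:164048234-164057677 on the plus strand, its promoter at chr1:164047984-164048283.
Sele promoter: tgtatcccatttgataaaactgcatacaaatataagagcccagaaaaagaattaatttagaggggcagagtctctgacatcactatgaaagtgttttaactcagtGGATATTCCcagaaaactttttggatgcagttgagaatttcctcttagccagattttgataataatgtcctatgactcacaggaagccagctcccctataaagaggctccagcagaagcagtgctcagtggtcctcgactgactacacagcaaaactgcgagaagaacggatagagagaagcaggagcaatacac
Selp begins 57587 bases after the end of Sele, at chr1:164115264-164150026 on the plus strand, its promoter at chr1:164115014-164115313.
Selp promoter: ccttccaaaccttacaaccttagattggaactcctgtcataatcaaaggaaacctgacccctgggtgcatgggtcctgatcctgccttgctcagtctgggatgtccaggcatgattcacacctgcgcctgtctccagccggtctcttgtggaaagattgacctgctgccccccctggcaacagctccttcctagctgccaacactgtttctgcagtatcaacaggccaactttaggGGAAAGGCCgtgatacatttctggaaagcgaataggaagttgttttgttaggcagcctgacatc
Icam1 lies at chr9:21015985-21028817 on the plus strand, its promoter at chr9:21015690-21015989, since the RefSeq start lies 45 bases upstream of the GENCODE one.
Icam1 promoter: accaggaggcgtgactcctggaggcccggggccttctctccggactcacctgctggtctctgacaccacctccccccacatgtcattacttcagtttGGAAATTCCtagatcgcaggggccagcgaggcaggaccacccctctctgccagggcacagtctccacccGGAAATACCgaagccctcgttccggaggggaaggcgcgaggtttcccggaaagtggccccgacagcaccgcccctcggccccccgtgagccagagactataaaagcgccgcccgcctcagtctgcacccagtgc
Counted from the RefSeq start, the Sele match began 145 bases before it, the Selp match 14 bases before it on the minus strand, and the matches of Icam1 153 bases before it on both strands and 84 bases before it on the minus strand. The promoter of Itga4, at chr2:79255176-79255475 on the plus strand, held none. Among 32851 promoters of the same length 18.5% held the letters. Sele and Icam1 also held TTCNNNGAA, found in 8.30% of promoters, which in Sele overlapped the capitals, and Sele and Selp held TGANTCA, found in 7.81%. A motif resembling a site of interferon regulatory factors, found in 3.44% of promoters, was in none of the 4. Of the other members, on the same build, Icam2 lies at chr11:106377656-106388075 (minus), Vcam1 at chr3:116109949-116129688 (minus), Itga4 at chr2:79255426-79333123 (plus), Itgal at chr7:127296260-127335138 (plus), Itgb2 at chr10:77530252-77565708 (plus) and Selplg at chr5:113818536-113832644 (minus).

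The genes divided into those whose UMIs lay mostly in endothelium, those of leukocytes, and a group shared with mesangial cells. Of all Sele UMIs in clustered cells, 90.7% in the control, 75.8% in the untreated and 75.1% in the treated library were in capillary endothelium. Selp followed with 83.5%, 65.2% and 66.7%, and Icam2 with 77.8%, 67.5% and 67.7%. Icam1 was split: capillary endothelium held 46.5%, 36.7% and 44.3% of its UMIs and mesangial cells 40.5%, 26.5% and 17.3%. Vcam1 was divided differently in each library. Mesangial cells held 95.1% of Vcam1 UMIs in the control, 32.9% in the untreated and 30.9% in the treated library, while capillary endothelium held 2.64%, 24.1% and 35.9%. Itga4 also lay mostly in mesangial cells of the control library, with 80.9% of its UMIs, against 20.3% and 20.4% in the MRL/lpr libraries, where leukocytes were more numerous and held 69.1% and 66.4%. Leukocytes held 92.3%, 93.1% and 86.5% of Itgal UMIs, 95.03%, 91.7% and 85.5% of Itgb2 UMIs, and 87.3%, 89.2% and 83.8% of Selplg UMIs. These shares follow the number of cells of each class in a library as well as the level per cell.

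**Figure D1:**
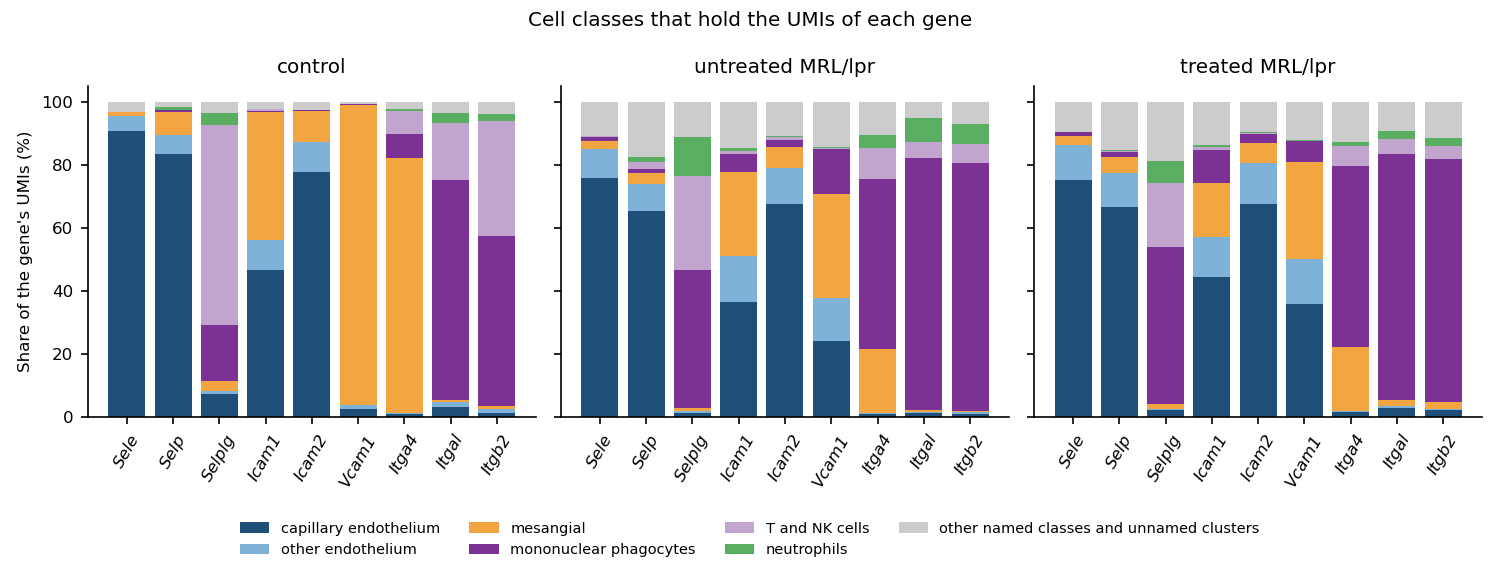
Stacked bars give the percentage of each gene's UMIs that fell in each cell class, 1 panel per library. Vcam1 is almost wholly mesangial in the control library (95.1%) and is divided among capillary endothelium, other endothelium, mesangial cells and leukocytes in the MRL/lpr libraries.

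Sele encodes E-selectin, the endothelial selectin on which leukocytes roll. In capillary endothelium it stood at 159 CPM (154 to 164) in the control, 421 (411 to 432) in the untreated and 590.5 (578 to 603) in the treated library. The treated library was the highest, the control the lowest, and the 3 counting intervals did not overlap. With the study's ribosomal limit, on far fewer cells, the treated level lay below the untreated one, as given below. The ratio of untreated to control was 2.65 (2.55 to 2.76; log2 1.41) and that of treated to untreated 1.40 (1.36 to 1.45; log2 0.49). Inside cluster 1 treated over untreated was log2 1.11 and inside cluster 3 it was 0.06 (-0.10 to 0.22). Other endothelium kept the same order at lower levels, 55.1, 237 and 389 CPM. Mesangial cells stood at 3.87, 26.5 and 30.1 CPM and podocytes, epithelial cells that should lack it, at 0.366, 3.43 and 5.34 CPM. In leukocytes of all types the level was 2.35, 9.64 and 11.5 CPM.

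Cell-free RNA sets a floor under these low values. Barcodes of 1 to 100 UMIs, which hold no cell, carried Sele at 26.4, 103 and 121 CPM. From markers of other classes the free RNA in a cell class was estimated, at 3.84%, 8.53% and 8.30% of the UMIs of capillary endothelium and at 9.0%, 10.7% and 9.33% of those of leukocytes. That share alone would give leukocytes 2.38, 10.96 and 11.3 CPM of Sele, about the levels counted in leukocytes as a whole. The part of free RNA in these levels was not tested. Phagocyte cluster 17 stood at 37.0 CPM in the treated and 9.09 in the untreated library (log2 2.02, 1.28 to 2.78). The treated value came from 35 UMIs in only 3.98% of 201 cells. Cluster 9 ran the other way, at 6.01 CPM in the treated and 17.5 in the untreated library (log2 -1.54, -2.45 to -0.56). In mesangial cells free RNA would give 70.9%, 43.8% and 46.4% of the Sele counted, and in capillary endothelium at most 2.08%.

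Selp encodes P-selectin, which endothelium stores in granules and platelets carry as well. In capillary endothelium it stood at 6.34 CPM (5.38 to 7.41), 28.2 (25.7 to 30.9) and 73.7 (69.5 to 78.1) in the control, untreated and treated libraries, again with the treated library highest and no overlap of the 3 intervals. The ratios were 4.45 (3.71 to 5.37; log2 2.15) for untreated over control and 2.61 (2.34 to 2.92; log2 1.39) for treated over untreated. Inside cluster 1 treated over untreated was log2 2.13 (1.56 to 2.76), and inside cluster 3 it was 1.23 (0.78 to 1.65). In other endothelium the levels were 2.93, 17.7 and 53.3 CPM. Selp was sparse: 2.18%, 8.59% and 15.6% of capillary cells had a UMI of it.

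Selplg encodes PSGL-1, the main leukocyte ligand of the selectins. It was a leukocyte gene throughout. T and NK cells stood at 394, 279.6 and 244 CPM, neutrophils at 324, 275 and 226, and mononuclear phagocytes at 131, 85.2 and 63.8. In each of these classes the control was highest and the treated library lowest, but the intervals of all 3 libraries overlapped in neutrophils, and in T and NK cells those of the MRL/lpr libraries overlapped (257 to 303 and 219.6 to 271). Treated over untreated was log2 -0.44 (-0.68 to -0.20) inside phagocyte cluster 4 and -0.39 (-0.62 to -0.15) inside T and NK cluster 15. The intervals included 0 in phagocyte clusters 9 (0.38), 17 (0.04) and 21 (-0.16). They also included 0 in T and NK clusters 19 (-0.40) and 24 (0.13). In capillary endothelium Selplg stood at 1.13, 1.61 and 2.43 CPM, where free RNA would give 0.173, 1.81 and 2.47.

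**Figure D2:**
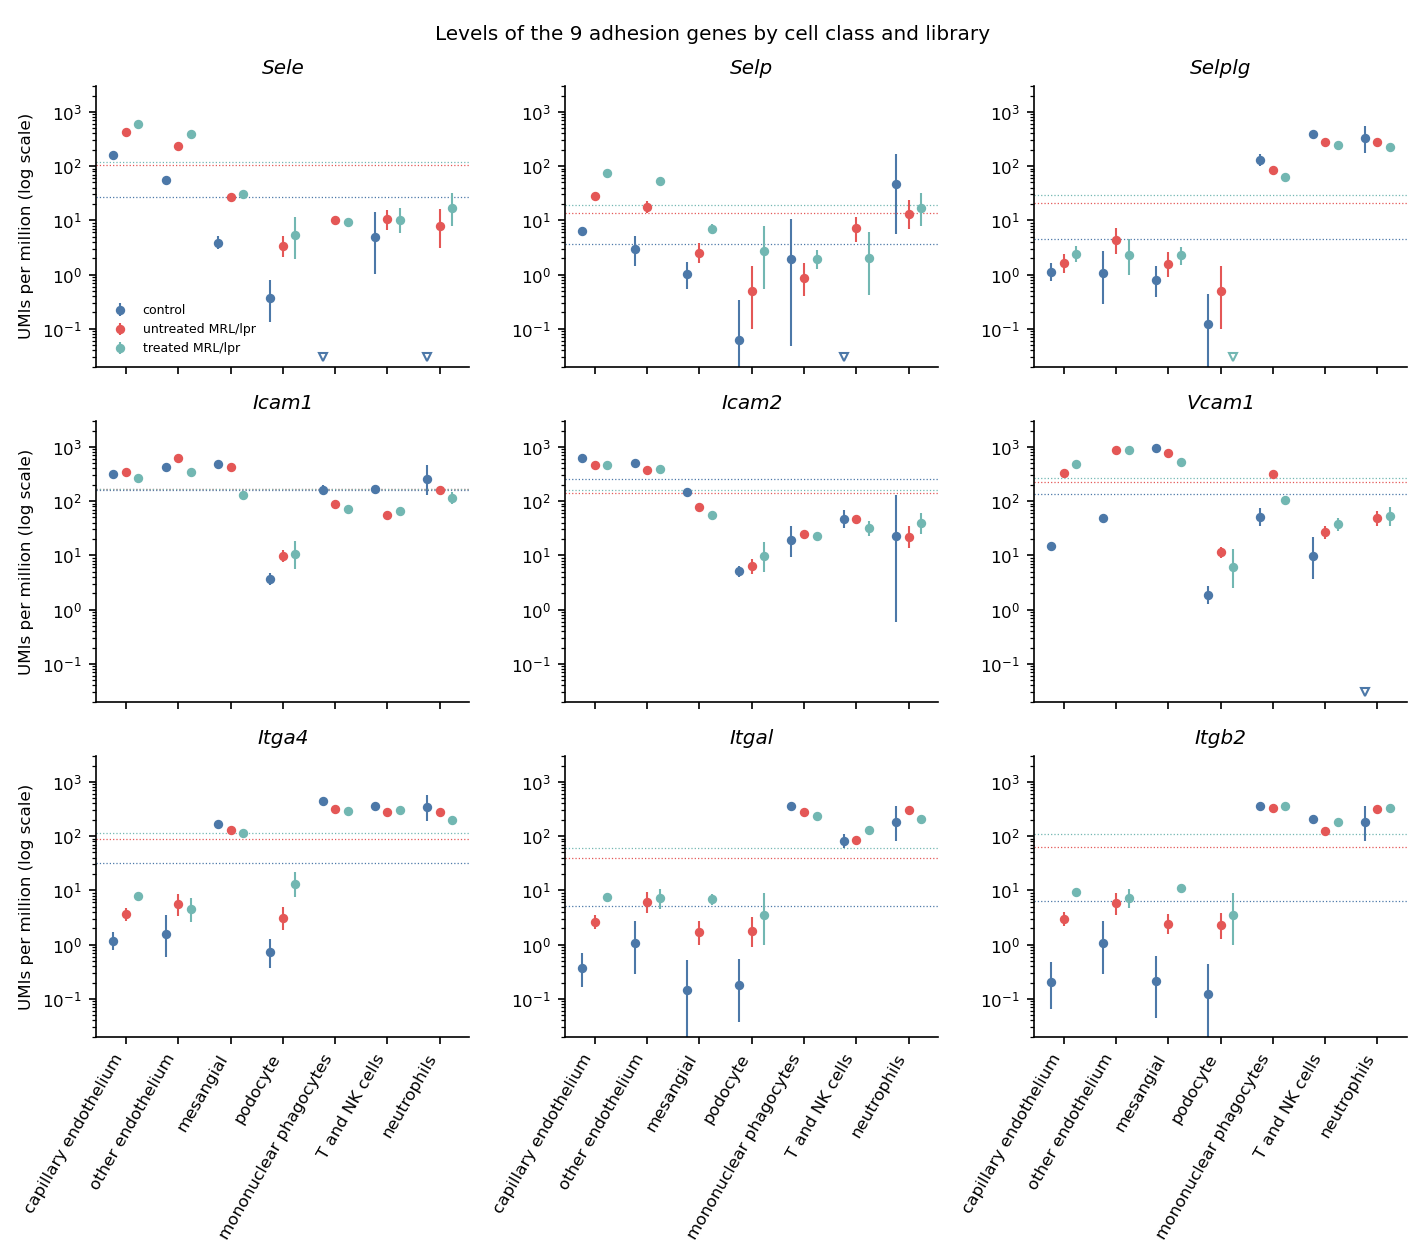
Each point is the level of 1 gene in 1 cell class of 1 library, in CPM on a log scale, with its exact 95% counting interval (cut where it leaves the axis). Dotted lines give the level in barcodes without a cell in the library of the same colour, and open triangles mark classes with 0 UMIs. Sele, Selp and Icam2 lead in endothelium, Selplg, Itgal and Itgb2 in leukocytes, and Vcam1 lies in mesangial cells of all libraries and in endothelium of the MRL/lpr libraries.

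Icam1 encodes the endothelial ligand of the beta-2 integrins. In capillary endothelium the 3 libraries lay close together, at 314 CPM (307 to 321), 338 (329 to 347) and 267 (259 to 275). The treated library was the lowest. Untreated over control was 1.08 (1.04 to 1.12; log2 0.11) and treated over untreated 0.790 (0.758 to 0.822; log2 -0.34). Both small differences hung on which cells were compared. With cells called by a depth rule set in each library and kept at 200 to 3000 genes, which left 2045 control and 2500 untreated capillary cells, the log2 ratio of untreated to control turned to -0.05. Inside cluster 1, which held 453 untreated and 3974 treated cells, Icam1 was higher in treated cells, 266 against 220.2 CPM (log2 0.27, 0.11 to 0.44), while inside cluster 3, with 3119 and 177 cells, it was lower, 303 against 351 CPM (log2 -0.21, -0.41 to -0.02). Within the control library the same gene differed more, at 363 CPM in cluster 2 and 116 CPM in cluster 10.

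In other endothelium and in mesangial cells the treated library stood further below the untreated one for Icam1 than in capillary endothelium. Other endothelium was at 426 CPM (405 to 447), 624 (598 to 651) and 341 (322 to 360), highest in the untreated library, with a log2 ratio of treated to untreated of -0.87 (-0.98 to -0.77). Mesangial cells were at 486 CPM (475 to 498), 421 (408 to 434) and 132 (125 to 138), a log2 ratio of -1.67 (-1.76 to -1.59). Inside cluster 7, the cluster of most treated mesangial cells, 147 untreated cells stood at 232 CPM and 1645 treated cells at 129 CPM, a log2 ratio of -0.85. Free RNA would give 14.3% of the Icam1 counted in treated mesangial cells. Podocytes stood at no more than 10.7 CPM in any library. In mononuclear phagocytes treated over untreated was log2 -0.28 (-0.41 to -0.14) and in T and NK cells 0.22 (-0.18 to 0.63).

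Icam2 encodes ICAM-2, an endothelial ligand of the same integrins. In capillary endothelium it was at 633 CPM (623 to 643) in the control, 461 (451 to 472) in the untreated and 467 (456 to 478) in the treated library, so that the control was highest and the MRL/lpr intervals overlapped. Its log2 ratios were -0.46 and 0.02. Inside cluster 1 treated over untreated was log2 -0.39 (-0.49 to -0.29), and inside cluster 3 it was -0.10 (-0.27 to 0.07). Other endothelium repeated the order with 499, 369 and 391 CPM.

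Vcam1 encodes the endothelial ligand of the alpha-4 beta-1 integrin, and had the largest ratio of the 9 genes between untreated and control capillary endothelium. In capillary endothelium it was at 14.7 CPM (13.3 to 16.3) in the control, 329.5 (321 to 338) in the untreated and 494 (483 to 505) in the treated library. As for Sele, the treated level fell below the untreated one with the study's ribosomal limit. Untreated over control was 22.4 (20.1 to 24.9; log2 4.48) and treated over untreated 1.50 (1.45 to 1.55; log2 0.58), or log2 0.73 inside cluster 1 and 0.30 inside cluster 3. Free RNA would give 34.6% of the control level and 5.82% and 4.40% of the MRL/lpr levels. In other endothelium the levels were 48.7 CPM (41.9 to 56.3), 886 (855 to 918) and 864 (834 to 895). Both MRL/lpr libraries lay far above the control there, by 18.2-fold for the untreated one, and their own intervals overlapped (log2 ratio -0.04, -0.11 to 0.04).

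In mesangial cells Vcam1 ran the other way, with the control highest at 944 CPM (928 to 960), the untreated library at 774 (756 to 792) and the treated at 537 (524 to 549.6). The log2 ratios were -0.29 and -0.53. The lower level of the treated library did not hold inside cluster 7, where treated cells were at 532 CPM and the 147 untreated cells at 451 CPM (log2 0.24, 0.07 to 0.40). In the control library, then, mesangial cells had more Vcam1 than either endothelium by a wide margin, and in the MRL/lpr libraries other endothelium had the most, followed by mesangial cells and capillary endothelium, with the 3 intervals apart in each library.

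The levels of Vcam1 in single capillary cells were uneven. A UMI of it was found in 3.65%, 33.5% and 41.1% of cells, and the highest cell of each library held 13, 51 and 52. In the untreated library the 10% of cells richest in Vcam1 held 70.6% of the Vcam1 UMIs of the class, against 48.2%, 48.4% and 29.7% for Sele, Icam1 and Icam2 in the cells richest in each. To take depth out of the shares each cell was thinned to 1000 UMIs. Then 1.11%, 17.3% and 23.9% of capillary cells had Vcam1, 10.1%, 26.2% and 30.7% had Sele, 21.8%, 22.7% and 19.7% had Icam1, and 46.6%, 36.5% and 36.5% had Icam2. In podocytes, whose median depths were 6668, 7204 and 6797 UMIs, the thinned shares were 0.254%, 1.58% and 0% for Vcam1 (0 of 148 cells, with an upper limit of 2.46%), 0.0424%, 0.122% and 0.676% for Sele, and 0.296%, 1.46% and 1.35% for Icam1.

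Taken as a list in capillary endothelium, 6 of the 9 genes were at least 2-fold higher in the untreated than in the control library and 0 were 2-fold lower, where 7.24% of 12599 genes tested were 2-fold higher and 4.75% lower. The 6 were Sele, Selp, Vcam1, Itga4, Itgal and Itgb2. Itga4, Itgal and Itgb2 had 59, 43 and 48 UMIs in the untreated but 29, 9 and 5 in the control library. The count of 6 is therefore not read against the share of all genes. The median log2 ratio of the 9 was 1.64, and that of all genes 0.01. Between treated and untreated libraries 4 of the 9 were 2-fold higher, Selp, Itga4, Itgal and Itgb2, and 0 were 2-fold lower, where 4.0% of 12365 genes were higher and 3.14% lower. The median was 0.59 beside 0.12 over all genes, so that on a scale centred on all genes the log2 ratios were 0.37 for Sele, -0.46 for Icam1 and 0.47 for Vcam1. Both comparisons use the untreated library.

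The 3 integrin subunits among those calls lay at the floor. Itga4, which pairs with beta-1 or beta-7 subunits, was counted in capillary endothelium at 1.17, 3.65 and 7.99 CPM, where free RNA would give 1.25, 7.43 and 9.49. Itgb2, the shared subunit of the beta-2 integrins, was at 0.202, 2.97 and 9.27 CPM against 0.245, 5.39 and 9.09. Itgal, its LFA-1 partner, was at 0.363, 2.66 and 7.48 CPM against 0.197, 3.35 and 5.05. General leukocyte markers had the same order: the 5 markers, with Ptprc among them, summed to 7.55, 78 and 204 CPM in capillary endothelium with none at 0. The 11 mononuclear phagocyte markers summed to 4.56, 137 and 262 CPM, with 1 at 0 in the control. The part of free RNA in these integrin values was not tested. The estimate is rough, since in the untreated library it exceeds the level counted for all 3 integrin genes. Only Itgal of the control and treated libraries and, by a small margin, Itgb2 of the treated library lay above their estimates. Inside cluster 1 treated over untreated was log2 0.77, 0.89 and 0.99 for Itga4, Itgal and Itgb2, all with intervals that included 0. The list medians given above, 1.64 and 0.59, are the ratios of Itga4 and of Selplg, which lie at this floor as well in the MRL/lpr libraries. The levels of Sele, Selp, Icam1, Icam2 and Vcam1 in the capillary class of the MRL/lpr libraries stood well above that floor.

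**Figure D3:**
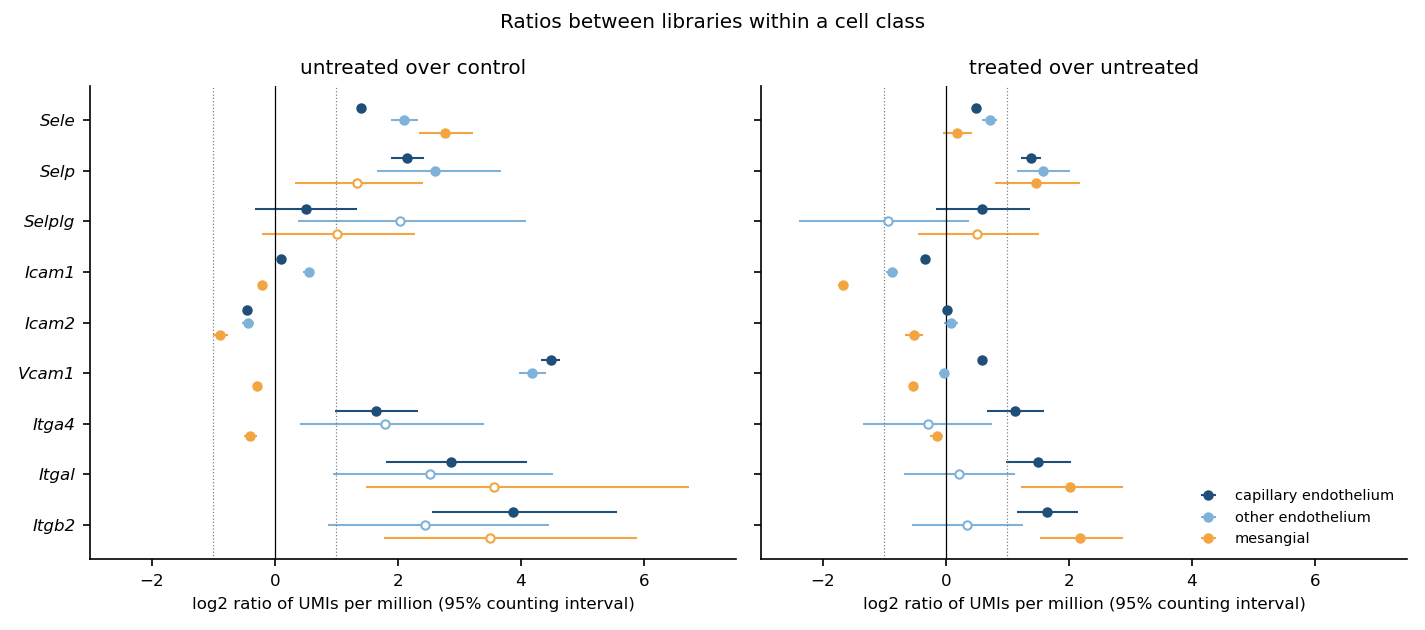
Log2 ratios between libraries with exact 95% counting intervals, for capillary endothelium, other endothelium and mesangial cells. Dotted lines stand at 2-fold and open circles mark pairs with fewer than 50 UMIs. Vcam1 of both endothelial classes lies beyond 4 in untreated over control, whereas mesangial Vcam1 lies at -0.29, and mesangial Icam1 reaches -1.67 in treated over untreated.

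A further measure differed between the libraries. The 10 dissociation-stress genes, early response genes such as Fos and Jun that enzymatic digestion can induce, summed to 40919.5 CPM in control, 32822 in untreated and 13778 in treated capillary endothelium. In mesangial cells they summed to 37866, 24694 and 9654 CPM. Treated over untreated, 7 of the 10 were at least 2-fold lower in capillary endothelium, with a median log2 ratio of -1.23, where 3.14% of all genes were. In mesangial cells 8 of 10 were lower, where 3.67% of all genes were, and 1 was higher, the heat shock gene Hspa1b at 1.81, with a median of -1.77. Icam1 was lowest in the treated library in both classes while Sele and Vcam1 of capillary endothelium were highest there. With the study's ribosomal limit, which left 59, 46 and 72 capillary cells, treated over untreated was log2 -0.72 for Sele and -1.32 for Vcam1. The part of the stress genes in these levels was not tested.

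In other endothelium 5 genes had enough UMIs. Sele, Selp and Vcam1 were 2-fold higher in the untreated than in the control library, at log2 2.11, 2.60 and 4.18, where 4.36% of 9073 genes were higher and 3.79% lower, and Icam1 was at 0.55 and Icam2 at -0.43. Selp had 61 UMIs in the untreated but 11 in the control library, so this count is not read against the share of all genes. Only Selp was 2-fold higher in treated over untreated, at log2 1.59, where 1.15% of genes were higher and 1.56% lower. Sele was at 0.71 and Icam2 at 0.08. The leukocyte genes stayed at 7.37 CPM or below in this class.

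In mesangial cells 1 of 5 genes with enough UMIs, Sele, was 2-fold higher in untreated over control, where 7.55% of genes were higher and 4.69% lower. Free RNA would give 43.8% of its untreated level, as given above. Treated over untreated, 3 of 8 genes were 2-fold higher (Selp, Itgal and Itgb2, none above 11.1 CPM) and 1 lower (Icam1). Among all genes 3.54% were higher and 3.67% lower, and the median was 0.14. Selp, Itgal and Itgb2 had 87, 85 and 137 UMIs in the treated but 24, 16 and 23 in the untreated library. Their number is therefore not read against the share of all genes. Free RNA would give 32.0%, 102% and 114% of their treated levels and 59.8%, 260% and 291% of their untreated ones. The part of free RNA in these calls was not tested. Itga4 was the 1 leukocyte integrin counted well above background in these cells, at 169.6 CPM (163 to 177), 129 (122 to 136) and 116 (110 to 122), where free RNA would give the mesangial class 3.38, 9.82 and 13.1. The control was highest, and the MRL/lpr intervals shared only their edge. Itgb2, which does not pair with it, stood at 0.215, 2.44 and 11.1 CPM in the same cells, while the general leukocyte markers summed to 1.86, 67.3 and 184 CPM.

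The integrins were highest in leukocytes. Mononuclear phagocytes carried Itga4 at 438, 314 and 297 CPM, Itgal at 365, 278 and 237, and Itgb2 at 354, 330.3 and 364. For Itga4 and Itgal the control was highest, and for Itgb2 the control interval overlapped both others. Inside cluster 4, the phagocyte cluster with 79 control cells, untreated over control was log2 -0.11 (-0.33 to 0.13) for Itga4 and 0.01 (-0.24 to 0.26) for Itgal, and the cluster held a larger part of control than of untreated phagocytes, as given above. T and NK cells had Itga4 at 354, 282 and 309.7 CPM, Itgal at 82.4, 85.8 and 131, and Itgb2 at 206, 125 and 179. Cluster 19 of this class held 32 control, 455 untreated and 64 treated cells. Untreated over control, Itgb2 was at log2 -0.43 (-0.92 to 0.08) inside cluster 15 and 0.09 (-0.34 to 0.53) inside cluster 24. Itga4 was at -0.41 (-0.76 to -0.05) and -0.36 (-0.77 to 0.04) there. Neutrophils had Itgb2 at 185, 311 and 335 CPM, with only 23 cells in the control. In mononuclear phagocytes 1 of 8 genes, Vcam1, was 2-fold higher in untreated over control (14.3% of genes higher, 8.06% lower), a count near that share. The control level of Vcam1 rested on 27 UMIs, and inside cluster 4 the ratio was log2 1.25 (-0.33 to 3.55). Cluster 17, where Vcam1 was highest, held 2.59% of control and 25.5% of untreated phagocytes. Vcam1 was also the 1 of 8 lower in treated over untreated (1.42% higher, 3.02% lower). In T and NK cells 1 of 7 genes was higher in untreated over control, Vcam1 (log2 1.45), and 1 lower, Icam1 (log2 -1.57), where 6.89% and 4.69% of genes were. That Vcam1 stood at 9.89 and 27.0 CPM, near the 11.9 and 24.0 CPM that free RNA would give leukocytes. It had 6 UMIs in the control and 57 in the untreated library, so its call is not read against the share of all genes. The Icam1 call lay in cluster 24, with 65 control cells at 351 CPM and 119 untreated cells at 55.6 CPM (log2 -2.66, -3.44 to -1.93), and not in cluster 15, with 68 and 375 cells (0.20, -0.57 to 1.04). None of 7 passed 2-fold in treated over untreated, where 1.43% of genes were higher and 6.13% lower.

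Vcam1 of mononuclear phagocytes stood at 51.9 CPM (34.2 to 75.5), 312 (301 to 322) and 104 (98.7 to 110), highest in the untreated library. Both the level inside clusters and the cluster shares differed between the MRL/lpr libraries. Cluster 17, led by the complement genes C1qa, C1qb and C1qc with Cd5l, held 846 CPM in the untreated and 451 CPM in the treated library (log2 -0.91, -1.06 to -0.76). Cluster 9, led by Gpnmb, Ms4a7 and Trem2, held 276 and 139.5 CPM (log2 -0.98, -1.19 to -0.77). Cluster 4, led by Clec4e and Il1b, held 25.8 and 26.6 CPM, about the 24.0 and 24.4 CPM that free RNA would give leukocytes, and cluster 21, led by Lyz2 and Ly6c2, held 29.9 and 20.3 CPM. Cluster 17 made up 2.59% of control, 25.5% of untreated and 5.43% of treated mononuclear phagocytes, and cluster 9 made up 7.76%, 7.18% and 35.6%. The integrins were highest in cluster 4 of both libraries. Itga4 stood there at 549.7 and 536 CPM against 96.0 and 98.3 in cluster 17, where it was lowest, although in both libraries that interval overlapped the one of cluster 9, at 129 and 118 CPM. Itgal stood at 525 and 472 CPM in cluster 4 against 23.0 and 48.6 in cluster 17, and in the treated library cluster 9 was about as low, at 44.8. Itgb2 stood at 478 and 500.3 CPM in cluster 4 against 197 and 283 in cluster 17, the lowest of the 4 clusters in the untreated library but the second in the treated one.

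**Figure D4:**
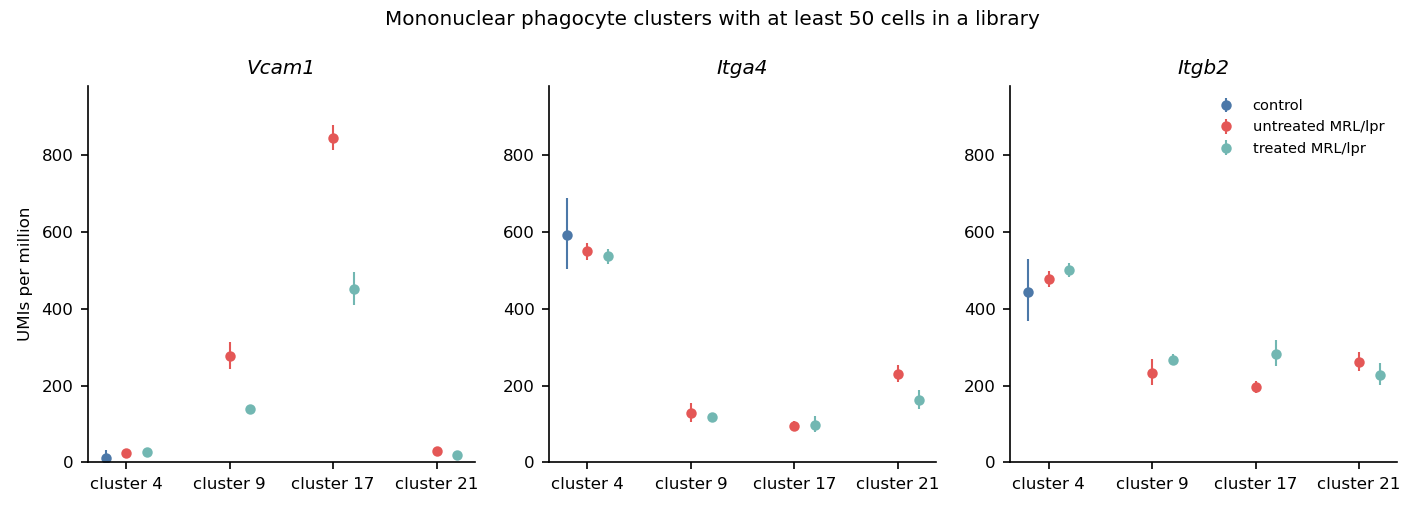
Levels in CPM, with exact 95% counting intervals, in the 4 mononuclear phagocyte clusters with at least 50 cells in a library, for Vcam1, Itga4 and Itgb2. Vcam1 is highest in cluster 17 (846 CPM untreated, 451 treated), where Itga4 is lowest, and Itga4 is highest in cluster 4, where Vcam1 is low (25.8 and 26.6 CPM).

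Co-detection asked whether single capillary cells with one inducible receptor tended to hold another. In cells thinned to 1000 UMIs, 3.02% of control, 7.76% of untreated and 7.68% of treated cells had both Sele and Icam1, where the product of the separate shares was 2.21%, 5.93% and 6.05%. The ratio was 1.37 (1.16 to 1.60), 1.31 (1.16 to 1.46) and 1.27 (1.14 to 1.41). The interval of such a ratio is the exact interval of the share with both genes, divided by the product taken as fixed. It is not an exact interval of the ratio, so reaching 1 does not settle whether the genes go together. Sele and Vcam1 were found together in 0.218%, 6.28% and 9.24% of cells, 1.94 (0.968 to 3.46), 1.39 (1.22 to 1.57) and 1.26 (1.14 to 1.38) times the product. Icam1 and Vcam1 were found together in 0.437%, 5.73% and 6.96%, 1.803 (1.13 to 2.73), 1.46 (1.27 to 1.67) and 1.47 (1.31 to 1.64) times the product. All ratios lay above 1, and the control pair of Sele and Vcam1, with 11 cells, was the one whose interval reached 1. Cells with all 3 genes made up 0.0992%, 2.67% and 3.36%, against a product of 0.0245%, 1.03% and 1.45%, and cells with none of them 70.5%, 51.0% and 46.2%.

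**Figure D5:**
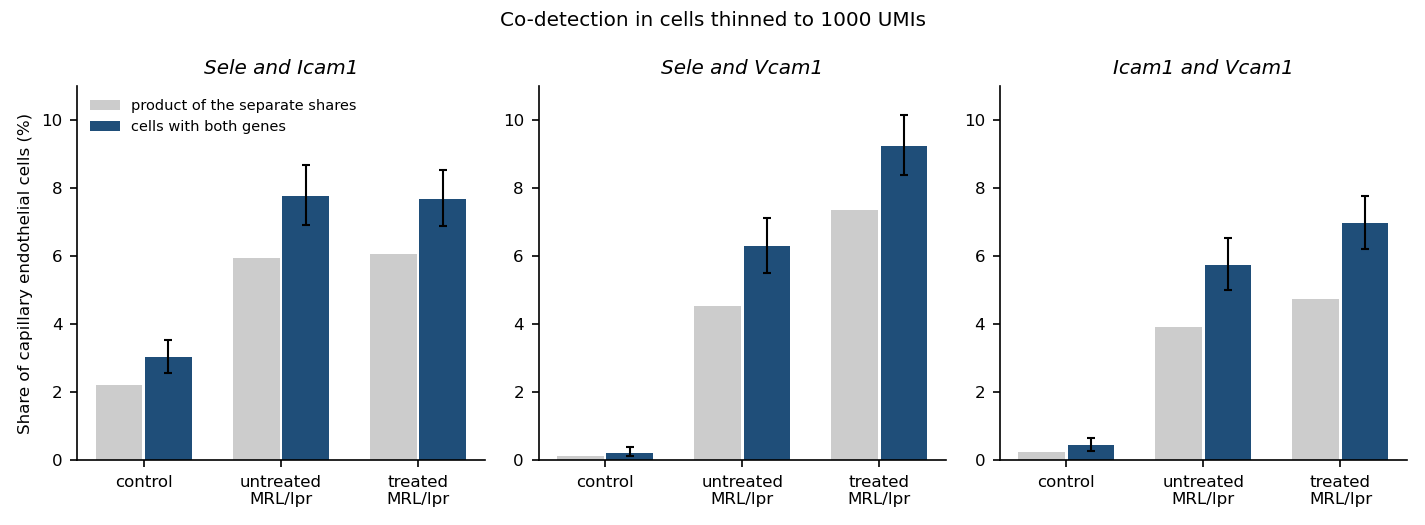
Percentage of capillary endothelial cells, thinned to 1000 UMIs, that held both genes of a pair (blue, with exact 95% binomial intervals) beside the product of the 2 separate shares (grey), by library. For each pair and library the observed share is above the product, for example 9.24% against 7.34% for Sele and Vcam1 in the treated library.

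Put as conditional shares, 24.0% of untreated capillary cells with Sele also had Vcam1, against 14.9% of cells without Sele, and in the treated library 30.1% against 21.2%. Of cells with Icam1 25.3% had Vcam1 in the untreated and 35.2% in the treated library, against 14.96% and 21.2% of cells without it. The ratios were also taken on either side of the median depth of the class. Among cells at or below it the untreated ratios were 1.42, 1.29 and 1.47 for Sele with Icam1, Sele with Vcam1 and Icam1 with Vcam1, and among deeper cells 1.21, 1.45 and 1.44. In the control they were 1.53, 1.49 and 1.75 among shallower and 1.22, 2.57 and 1.99 among deeper cells, and the intervals of Sele with Vcam1 in shallower cells (0.406 to 3.81), Sele with Icam1 in deeper cells (0.996 to 1.49) and Icam1 with Vcam1 in both reached 1. Among shallower treated cells they were 1.402, 1.42 and 1.501. Among deeper treated cells they were 1.16, 1.13 and 1.44, and the intervals of both pairs with Sele reached 1 (0.996 to 1.34 and 0.992 to 1.28). Within cluster 3 of the untreated library they were 1.28, 1.38 and 1.39, and within cluster 1 of the treated library 1.25, 1.25 and 1.48, all with intervals above 1. Within cluster 2 of the control they were 1.24 (1.04 to 1.45), 1.83 (0.837 to 3.47) and 1.56 (0.907 to 2.49), and within its cluster 10 all 3 intervals reached 1, so that inside single clusters no control pair with Vcam1 stood clear of 1. In the smaller MRL/lpr groups, the interval lay above 1 for Icam1 with Vcam1 alone in cluster 1 of the untreated library and for Sele with Icam1 alone in cluster 3 of the treated library. In other endothelium the untreated ratios were 1.50, 1.51 and 1.21, the last with an interval that reached 1 (0.994 to 1.45). The treated ratios there were 1.48, 1.503 and 1.22, the last again reaching 1 (0.956 to 1.53), and in the control Sele with Icam1 was at 0.876 (0.239 to 2.23), from 4 cells with both, and Icam1 with Vcam1 at 2.19 (1.05 to 3.999). In mesangial cells Icam1 and Vcam1 were together at 1.18, 1.01 and 0.993 times the product, with all 3 intervals reaching 1. In thinned cells 1.17%, 3.93% and 8.14% of capillary cells with Sele had Selp, the neighbouring gene, against 0.464%, 2.03% and 4.67% of cells without Sele, and the ratio to the product was 2.19 (0.805 to 4.77), 1.55 (1.096 to 2.14) and 1.42 (1.16 to 1.71). At full depth, where cells with Sele are also the deeper ones, these shares were 4.89%, 11.7% and 22.0% against 1.35%, 5.18% and 8.74%.

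Among 6995 genes with enough UMIs in every library, thinned capillary cells with Sele were set against cells without it, and genes were ranked by the lowest log2 ratio of the 3 libraries. Vcam1 led (1.48, 0.81 and 0.80 in control, untreated and treated), and Icam1 came next (0.75, 0.87 and 0.77). They were followed by Cxcl2, a neutrophil-attracting chemokine (0.77, 1.1 and 0.66), Cxcl10, a T cell-attracting chemokine (0.94, 0.59 and 1.19), and Akap12, a scaffold protein. For cells with Icam1 the order was Vcam1, Cxcl2, Ripk2, Tnfaip3 and Cxcl10, the first at 1.18, 1.02 and 1.01. Ripk2 encodes a kinase of innate signalling and Tnfaip3 an inhibitor of NF-kB signalling. For cells with Vcam1 it was Icam1 (1.05, 1.08 and 1.22), Cxcl10 (1.12, 0.94 and 1.36), Slc10a6, Tnfaip3 and Tnf, with Sele at rank 21. Only 56 control cells had Vcam1, with 3 UMIs of Tnfaip3 (interval -0.12 to 3.82) and 2 of Tnf (-2.02 to 2.95), and the interval of Tnf included 0 in the treated library as well. In the control the intervals of Cxcl2 in cells with Sele (-0.10 to 1.56) and of Tnfaip3 in cells with Icam1 (-0.04 to 1.61) also included 0. Icam2 ranked 2346 in cells with Sele. The stress genes were at log2 0.11, 0.05 and 0.23 in cells with Sele over cells without, at 0.26, 0.06 and 0.18 for Icam1 and at -0.06, -0.02 and 0.25 for Vcam1. General leukocyte markers had intervals that included 0 in all but 1 of these 9 comparisons, cells with Icam1 in the control.

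Other genes of leukocyte adhesion were taken from 4 lists. In capillary endothelium, untreated over control, 1 of 13 junction and transmigration genes was 2-fold higher, Alcam, an immunoglobulin-family adhesion receptor, at log2 1.02, where 7.24% of all genes tested were 2-fold higher. Pvr, the poliovirus receptor, was next at 0.90, and Cd47 and Jam3 were lowest at -0.42 and -0.32. Of 10 other integrin genes 1 was higher, Itga2 at 1.06, followed by Itga1 at 0.61, both collagen-binding subunits, with Itgb3 at -0.96 and Itgb5 at -0.35 lowest. Of 11 selectin, mucin ligand and glycosylation genes 2 were higher, Cd44, a hyaluronan receptor, at 3.20 and B3gnt3 at 1.64, with Chst2, a sulfotransferase, at -0.88 and Cd24a at -0.32 lowest. Of 9 integrin activation genes 1 was higher, Apbb1ip at 1.62, then Fyb at 0.95, with Arhgap45 at -0.83 and Rasgrp2 at -0.43 lowest. Each list thus had 1 or 2 genes past 2-fold, in lists of 9 to 13. None of these lists had a gene 2-fold lower, where 4.75% of all genes were. The medians were 0.30, 0.23, 0.15 and -0.12, beside 0.01 over all genes.

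Treated over untreated, where 4.0% of all genes were 2-fold higher, the same lists had 1 of 13 junction genes higher (Jam2, 1.27, with Jam3 next at 0.72 and Nectin2 and Cd99l2 lowest at -0.33 and -0.12). Of 11 other integrin genes 3 were higher, Itgax at 2.88, Itga2 at 2.26 and Itgb3 at 1.63, with Itgb5 at -0.44 and Itga5 at -0.11 lowest. Itgax is a leukocyte integrin. Of 12 selectin-related genes 1 was higher, Cd44 at 1.18, with Spn at 0.78 next and Cd24a at -0.72 and B4galt1 at -0.26 lowest. Of 10 activation genes 1 was higher, Skap1 at 1.26, then Fyb at 0.95, with Rasgrp2 at -0.41 and Tln1, talin, at -0.30 lowest. Skap1, Fyb, Spn, Apbb1ip and Cd44 are, like Itgax, known from leukocytes, and all 6 stood at 18.4 CPM or below in capillary endothelium, while the leukocyte marker sums above had the same order. The part of leukocyte RNA in these calls was not tested. The medians were 0.10, 0.52, 0.32 and 0.38 beside 0.12 over all genes, and no gene of the lists was 2-fold lower, where 3.14% of all genes were.

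Likeness was measured as Pearson's r of log2(CPM + 1) over 31 pairs of cell class and library, among 11630 genes. It is a description, since pairs of 1 library share depth and free RNA. Sele was most like Gm30382 (0.964), Sost (0.958) and Kdr (0.944), Kdr being the endothelial VEGF receptor. Icam2 was most like Esam (0.962), an endothelial junction protein. Vcam1 was most like Slc12a2 (0.904), Serpina3g (0.867) and Lgals3bp (0.859), and Icam1 most like Gbp5 (0.922), Parp14 (0.916) and Casp4 (0.901). Selp had no close match, with Rgl2 at 0.831 first. Itgal and Itgb2 were each other's closest gene (0.992). Itga4 was most like Cd53 (0.951), a leukocyte tetraspanin, and Selplg most like Pstpip1 (0.981).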

How the data were processed

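The authors deposited unfiltered gene by barcode tables of UMI counts for 3 droplet libraries (10x Genomics), 1 per condition. The headers of the deposited files name Cell Ranger 4, the protocol names Cell Ranger v1.1.0, and the submitters' processing notes name STAR and build mm10.

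Barcodes with at least 1000 UMIs and at most 10% of UMIs from mitochondrial genes were kept. The authors' own limits on cells had not been applied to the deposited tables. Of them the mitochondrial limit was used here, and the others only among the alternatives. In each library the barcodes with the highest doublet scores (Scrublet in scanpy 1.11.5) were removed at 0.8% per 1000 cells, 971, 1593 and 2201 of them. On log-scaled counts, 2000 variable genes, 30 principal components, 15 neighbours and Leiden clustering at resolution 1.0 (igraph 0.11.9, seed 0) gave 39 clusters. The 9 genes, the adhesion lists and mitochondrial genes were left out of clustering. A cluster was named from marker lists by its mean log2 level over the median of all clusters, with at least 3 markers detected, a score of at least 1 and a gap of at least 0.5 to the next class. Clusters that missed these limits, or whose median UMIs were over 3 times those of their libraries, stayed unnamed. These naming limits date from after the clusters were inspected.

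Summed UMIs per class and library gave CPM with exact Poisson intervals, shares with exact Clopper-Pearson intervals, and log2 ratios with exact conditional binomial intervals, all at 95% and for counting error only (scipy 1.17.1). Cells are not replicates and no p-value was computed. Ratios were called at 2-fold among genes with at least 50 UMIs over both libraries. On counts simulated without a difference, 95.4% of the intervals for untreated over control capillary endothelium held the true value. With folds of 0.25 to 4 set in 49 or 50 genes each, 87.8% to 100% did. The counts were drawn from the model that the intervals assume, without the spread between cells. They check the computation and not how well the model describes these data. For shares of cells and co-detection each cell was thinned to 1000 UMIs. The interval of a co-detection ratio is the exact interval of the joint share divided by the product of the separate shares, held fixed. Free RNA came from barcodes of 1 to 100 UMIs, scaled by markers of other classes. Gene positions came from GENCODE M21 (99.6% of gene IDs matched) and promoters from RefSeq.

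The members and gene lists were chosen with earlier results of these data known. All members are named, and from each list the 2 genes with the largest log2 ratio in each direction. For each member the 3 genes of highest Pearson correlation were found, and for Sele, Icam1 and Vcam1 the 5 genes with the largest ratio between cells with and without them. Any list gene 2-fold higher is named as well, which named Itgb3 in treated over untreated after its value was seen. Alternatives tried were doublets kept, cells called by an order-of-magnitude rule with 200 to 3000 genes, a 5% ribosomal limit, an Ehd3 UMI in each cell, Leiden resolution 2.0, free RNA subtracted, ratios centred on all genes, thinned levels, and co-detection at full depth.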

Additional observations from a re-analysis of the deposited data

Results flagged for a closer look

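The members named here, each with at least 50 UMIs in both classes, had log2 ratios whose counting intervals lay on opposite sides of 0. Capillary endothelium was set against other endothelium, mesangial cells, mononuclear phagocytes and T and NK cells. How many of all genes differ in this way was not counted, so the number of members is not read as a result. With 1 library per condition none of these differences was tested. Untreated over control, Icam1 was at 0.11 in capillary endothelium, -0.21 in mesangial cells, -0.89 in mononuclear phagocytes and -1.57 in T and NK cells. The capillary value turned direction with order-of-magnitude cell calls, as given below. Icam1 was at -0.46 (-0.93 to 0.03) inside phagocyte cluster 4. Inside T and NK cluster 15 it was at 0.20 (-0.57 to 1.04), and inside cluster 24 at -2.66 (-3.44 to -1.93). Vcam1 was at 4.48 in capillary endothelium and -0.29 in mesangial cells. Itga4 was at 1.64 in capillary endothelium, -0.40 in mesangial cells, -0.48 in mononuclear phagocytes and -0.33 in T and NK cells, Itgal at 2.87 in capillary endothelium and -0.40 in mononuclear phagocytes, and Itgb2 at 3.88 in capillary endothelium and -0.73 in T and NK cells. Inside T and NK clusters 15 and 24 Itgb2 was at -0.43 (-0.92 to 0.08) and 0.09 (-0.34 to 0.53). Treated over untreated, Vcam1 was at 0.58 in capillary endothelium, -0.53 in mesangial cells and -1.58 in mononuclear phagocytes. Inside mesangial cluster 7 it was at 0.24 (0.07 to 0.40), on the same side of 0 as in capillary endothelium. Itga4 was at 1.13 in capillary endothelium, -0.15 in mesangial cells and -0.0816 in mononuclear phagocytes, and Itgal at 1.49 in capillary endothelium and -0.22 in mononuclear phagocytes. Inside capillary cluster 1 Itga4 was at 0.77 (-0.32 to 2.11) and Itgal at 0.89 (-0.28 to 2.37). Itga4 was at -0.04 (-0.36 to 0.30) inside mesangial cluster 7. Inside phagocyte clusters 4, 9, 17 and 21 Itga4 was at -0.04, -0.13, 0.03 and -0.51, with an interval clear of 0 in cluster 21 alone. Itgal was at -0.15, -1.09, 1.08 and -0.28 there, with all intervals clear of 0. Inside phagocyte cluster 4 untreated over control was -0.11 for Itga4 and 0.01 for Itgal, with intervals that included 0. The capillary values of Itga4, Itgal and Itgb2 rest on 5 to 145 UMIs per library and lie about the free RNA level.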

How the results depend on the processing

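No paired analysis was possible because each condition has 1 library. Of the main results under the alternatives, 47 values moved by less than their counting interval, 20 by more, and 4 turned direction. The values that turned were untreated over control Icam1 at log2 -0.054 with order-of-magnitude cell calls, and, with the ribosomal limit, treated over untreated Sele at -0.72 and Vcam1 at -1.32 and the co-detection of Sele and Vcam1 at 0.338 times the product of shares. The ribosomal limit left 59, 46 and 72 capillary cells. It also gave 3.33 for Sele, 0.42 for Icam1 and 4.78 for Vcam1 in untreated over control and -0.73 for Icam1 in treated over untreated. Order-of-magnitude calls gave 1.25 for Sele and 4.70 for Vcam1 in untreated over control, -0.23 for Icam1 in treated over untreated, and 97.2% for the share of untreated Itgb2 UMIs in leukocytes (91.7% as reported), which was 88.0% with doublets kept. An Ehd3 UMI per cell gave 0.18 for Icam1 in untreated over control, and -0.41 for Icam1 and 0.40 for Vcam1 in treated over untreated. Centred on all genes, treated over untreated was 0.37 for Sele, -0.46 for Icam1 and 0.47 for Vcam1. Thinned, Icam1 was at 0.16 in untreated over control, and Icam1 at -0.25 and Vcam1 at 0.47 in treated over untreated. With free RNA subtracted Vcam1 was at 5.08 in untreated over control. At full depth Icam1 and Vcam1 were together at 1.25 times the product. The causes were not tested. Free RNA could not be subtracted from co-detection or from the share of Itgb2, which has no Ehd3 alternative. Of the 79 values for the other genes, 10 moved and 0 turned. The interval of each ratio covers counting only, the libraries differ in depth and in the clusters that hold a class, and mouse, library and treatment cannot be told apart.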

Other observations

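Leukocyte integrin genes were also set against each other in single mononuclear phagocytes thinned to 1000 UMIs. Itgal and Itgb2, the 2 subunits of LFA-1, were found together in 9.28% of untreated and 9.03% of treated cells, 1.28 (1.11 to 1.46) and 1.28 (1.15 to 1.41) times the product of their shares. In control phagocytes the ratio was 1.12 (0.645 to 1.78), and in T and NK cells and in neutrophils the intervals of all 3 libraries reached 1, for example 1.26 (0.576 to 2.37) in untreated T and NK cells. Itga4 and Vcam1, receptor and ligand, were found together in 1.95% and 1.03% of these cells, 0.488 (0.351 to 0.659) and 0.599 (0.424 to 0.820) times the product in the untreated and treated libraries, and in 0 of 116 control cells (exact upper limit 3.13%), where the product was 0.936%. Clusters 4 and 17, where the levels of the pair were opposite, both lie in this class. Cells with Itga4 had Vcam1 in 7.19% of the untreated and 3.804% of the treated library, against 17.6% and 7.30% of cells without Itga4. In mesangial cells Vcam1 and Itga4 were found together at 0.949, 0.953 and 1.24 times the product in the control, untreated and treated libraries, with intervals that reached 1 in the control and untreated libraries.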
